A study of Mus musculus with 30 samples.

Results

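Hypothalamic RNA from wild-type C57BL/6 mice refed for 1 week was set against RNA from mice refed for 1 h, both after a fast of 72 h. The comparison rests on 7 of the 30 libraries of the series, 4 taken at 1 week and 3 taken at 1 h, and it covers every gene of the refeeding count table. Of 55401 genes listed, 19932 passed a filter on low counts and were tested. All libraries were made from ribosome-depleted total RNA. Libraries taken at 12 h of refeeding (n = 3) entered the fit and are given as levels. A fed group (n = 3) and a group fasted for 72 h and not refed (n = 3), both from a second count table, are also given as levels. Where their levels stand beside those of refed animals, count table or run and feeding state cannot be told apart. All 5 groups carry the wild-type genotype, and the sources used here state neither the age and sex of the animals nor their number per library. Because every animal of both groups had been fasted and refed, the difference between 1 week and 1 h is a difference in time after the return of food and not a difference from animals that never fasted.

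The hypothalamus holds the neurons that read nutritional state. In its arcuate nucleus, neurons that make Agrp and Npy promote feeding and are active in hunger, and neurons that make Pomc and Cartpt restrain feeding. A long fast also raises circulating glucocorticoids and ketone bodies and lowers insulin, leptin and thyroid hormone, and neurons, glia and vessels of this region carry receptors for these signals. Return of food reverses the hormonal signals within hours, while stores of fat and lean mass take days to refill.

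Levels are CPM, counts scaled to a common library size by TMM factors, and means are given ± SD over 4 libraries at 1 week and 3 at 1 h. Differences are log2 values of 1 week minus 1 h from edgeR's quasi-likelihood test, ± SE, so that a negative value marks a gene that was lower at 1 week. Calls were made at an adjusted p (Benjamini-Hochberg, over all 19932 genes) below 0.05. By this rule 5370 genes (26.9%) were called, 2689 (13.5%) higher and 2681 (13.5%) lower at 1 week, so a gene list with about 13.5% of its measured members called in a direction is at the level of all genes. A difference of more than 2-fold was met by 581 of the called genes (2.91%), 295 of them (1.48%) higher and 286 (1.43%) lower at 1 week. The libraries of both times did not overlap for 7345 genes (36.9%), and the median log2 difference over all genes was 0.00123. Genes named for the largest differences were drawn only from genes without overlap, so their separation was a condition of the choice. Where a list is described, its count and median are descriptions set beside these values, and they were not tested as a set. List counts of 5 or fewer moved by up to 3 when single libraries were left out, and larger counts that moved by over 1.5 times are named with the library.

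**Figure D1:**
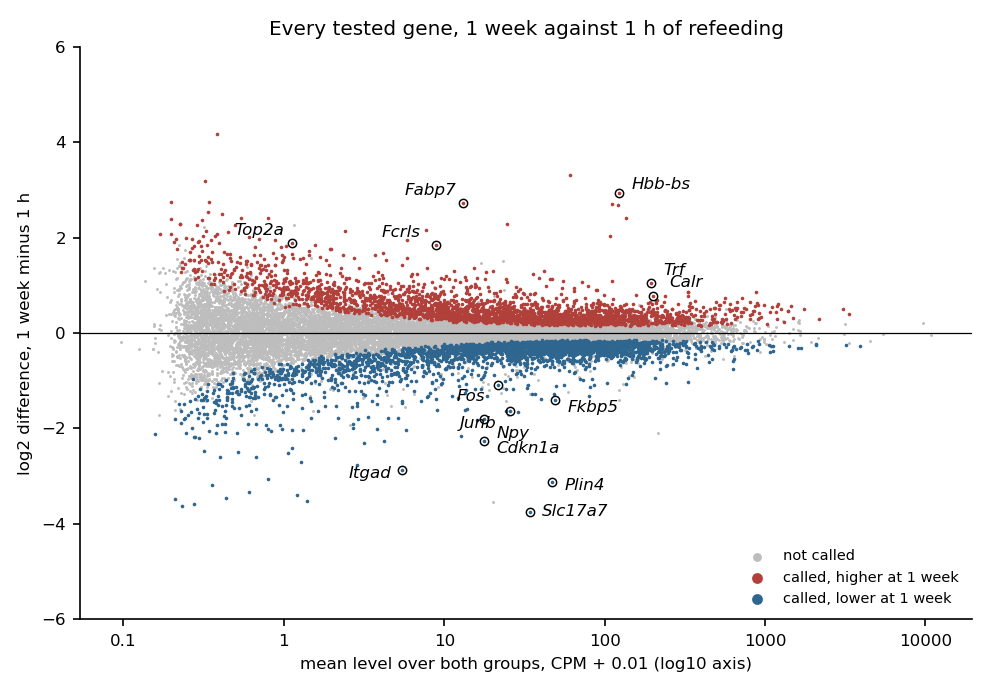
Each point is 1 of 19932 tested genes, with its mean level over both groups in CPM plus 0.01 on a log10 axis and its log2 difference, 1 week minus 1 h, on the vertical axis; red and blue points are the 2689 called higher and 2681 called lower at 1 week. Plin4 (-3.12) and Slc17a7 (-3.75) lie far below 0 and Fabp7 (2.73) and Hbb-bs (2.94) far above it.

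The 1-week libraries were deeper than the others, with totals between 46.9 and 64.3 M counts, against 28.5 to 33.1 M at 1 h, and 12-h libraries held 26.1 to 34.1 M. The labels give no sequencing run, so a run or a day that differed between the times cannot be told apart from the time itself. Hypothalamic tissue was present in every library: Hcrt, the peptide of orexin neurons, lay between 47.3 and 69.4 CPM at 1 week and between 39.9 and 48.3 CPM at 1 h. Genes of neighbouring tissue also moved with time. Of 15 measured markers of cortical and hippocampal neurons 8 were lower at 1 week and 0 higher, with summed levels of 546 to 613 CPM at 1 week and 758 to 814 CPM at 1 h. Slc17a7, the vesicular glutamate transporter of cortical neurons, had 3.65, 1.49, 12.0 and 4.02 CPM at 1 week, against 84.2, 64.8 and 68.1 CPM at 1 h, and Neurod2, a transcription factor of the same neurons, had 1.02, 0.757, 0.806 and 0.630 CPM at 1 week, against 6.37, 6.31 and 3.92 CPM at 1 h. Both genes were lower in every 1-week library than in any 1-h library (log2 difference -3.75 ± 1.01, adjusted p = 0.0324 for Slc17a7). The call of Slc17a7 was lost without 1-h library 1, 2 or 3 or 1-week library 1, 2 or 4, with adjusted p from 0.0668 to 0.0853, and without 1-week library 1 only 5 cortical markers were called lower. Of 10 measured blood cell markers 6 were higher at 1 week and 0 lower, with sums of 551 to 1418 CPM at 1 week and 219 to 276 CPM at 1 h. Haemoglobin Hbb-bs had 367, 123, 128 and 162 CPM at 1 week, against 33.0, 24.2 and 19.0 CPM at 1 h, so that all 1-week libraries were above all 1-h libraries and 1-week library 1 stood above the other 3. Sums of 16 measured striatal markers, of which 0 were called, ranged from 623 to 1793 CPM at 1 week and from 821 to 1982 CPM at 1 h. Of 14 measured thalamic markers 3 were higher and 1 lower, and of 16 measured meningeal and matrix markers 7 were higher and 1 lower, with overlapping sums of 558 to 909 CPM at 1 week and 643 to 1032 CPM at 1 h. Without 1-h library 3 only 4 meningeal markers were called higher. Among 15 measured choroid plexus markers 3 were higher and 2 lower, with sums of 269 to 287 CPM at 1 week and 172 to 201 CPM at 1 h. The sums rose although 9 of the 15 log2 differences were negative, with a median of -0.10. Ttr, the defining gene of this tissue, was near 1 CPM at both times, at 1.07 CPM at 1 week and 1.38 CPM at 1 h. In bulk tissue, fewer cells of a type and less RNA per cell cannot be told apart. The part of these tissue markers in the gene differences below was not tested, and levels of single libraries set beside them are descriptions only.

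**Figure D2:**
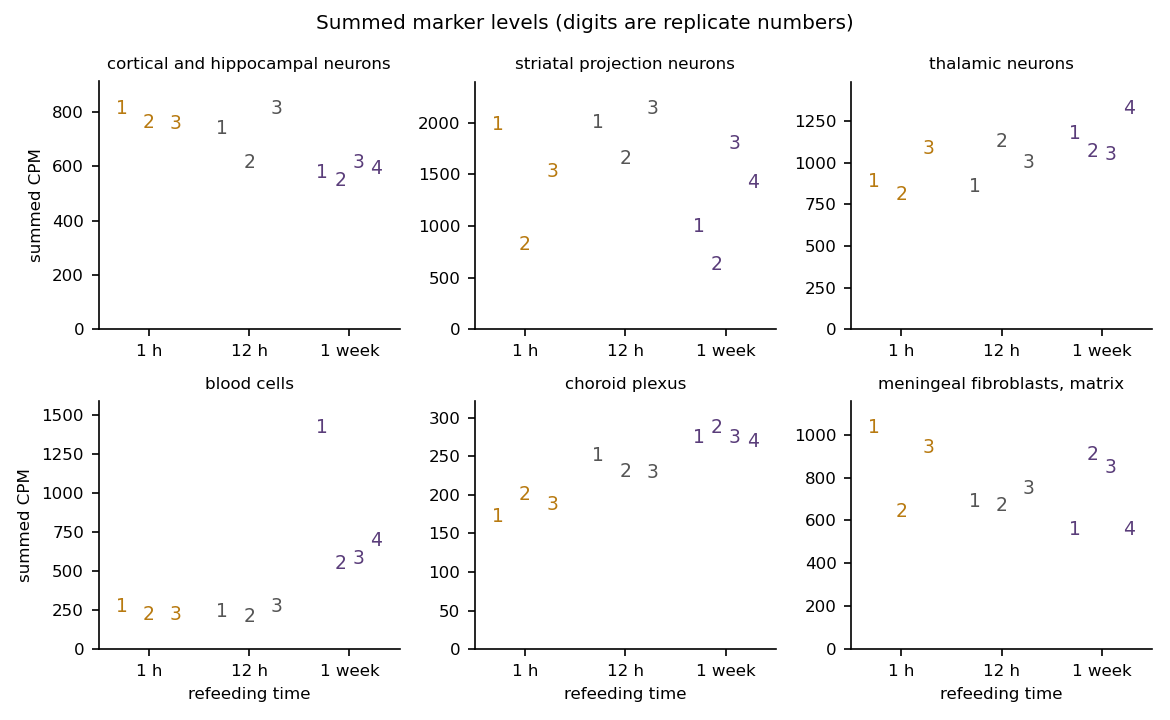
Summed CPM of 6 marker lists in each library over refeeding time, with digits for replicate numbers and all axes from 0. Blood markers were at 551 to 1418 CPM at 1 week and 219 to 276 CPM at 1 h, cortical and hippocampal markers were lower in every 1-week library than in any 1-h library, and striatal markers varied as much within as between the times.

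Most genes that glucocorticoids induce were lower at 1 week. Of 31 listed genes 29 were measured, and 23 of them (79.3%) were lower at 1 week and 0 higher, against 13.5% of all genes in each direction, with a median log2 difference of -0.89. Plin4, a lipid droplet coat protein, had 8.80, 11.6, 10.4 and 12.6 CPM at 1 week, against 92.3, 86.8 and 104 CPM at 1 h. Its 1-week values were close to one another and all far under the 1-h values (log2 difference -3.12 ± 0.14, adjusted p = 4.61e-07). Cdkn1a, a cell cycle inhibitor that is also a glucocorticoid target, had 6.21, 6.10, 7.82 and 6.66 CPM at 1 week, against 33.2, 28.1 and 35.2 CPM at 1 h. It too showed no overlap between the times and was 4.799-fold lower at 1 week (log2 difference -2.26 ± 0.14, adjusted p = 6.26e-07). Fkbp5, the cochaperone that damps the glucocorticoid receptor, had 26.9, 29.0, 30.9 and 28.4 CPM at 1 week, against 75.6, 64.7 and 88.1 CPM at 1 h. The 4 libraries at 1 week lay close together and under every 1-h library (log2 difference -1.40 ± 0.10, adjusted p = 2.56e-06). Pnpla2, the lipase that opens triglyceride stores, averaged 17.5 ± 1.17 CPM at 1 week and 39.5 ± 1.25 CPM at 1 h (log2 difference -1.17 ± 0.07, adjusted p = 2.93e-07). Mfsd2a, the lysolipid transporter of brain vessels, averaged 15.7 ± 2.11 CPM at 1 week and 35.5 ± 3.39 CPM at 1 h (log2 difference -1.18 ± 0.10, adjusted p = 6.14e-06). Pla2g3, a secreted phospholipase, averaged 2.19 ± 0.256 CPM at 1 week and 7.51 ± 0.503 CPM at 1 h (log2 difference -1.77 ± 0.13, adjusted p = 8.43e-07), with 45.0% of its span shared with other genes. Mt1, a metallothionein, had 97.3, 109, 92.4 and 97.3 CPM at 1 week, against 172, 148 and 153 CPM at 1 h (log2 difference -0.67 ± 0.07, adjusted p = 2.88e-05). Tsc22d1 (0.06) did not pass the test. Under the processing alternatives between 19 and 25 members were called lower and 0 higher.

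Plin4 (ENSMUSG00000002831) lies at chr17:56100591-56109803 of GRCm38, Cdkn1a (ENSMUSG00000023067) at chr17:29090976-29100727 and Fkbp5 (ENSMUSG00000024222) at chr17:28399094-28517527. The 250 bases before the RefSeq start were searched for a glucocorticoid response element, spelled GNACA and TGTNC with 3 bases between them and read on both strands, which 0.387% of 32851 mouse promoters of that length hold. Counted by gene, with any of a gene's promoters holding it, the share is 0.44%. The element was found in 3 of 26 list members with a RefSeq promoter (Map3k6, Mt1 and Sgk1). All 3 genes were lower at 1 week, as were 21 of the 26 in all. The list gathers genes known to respond to glucocorticoids, so the match count describes the list and not the response. The promoter of Mt1 is shown because it holds the match in a gene whose level was read in every library. It lies at chr8:94178839-94179088 (GRCm38.p6, plus strand, RefSeq), with the match in capitals, starting 94 bases before the gene start.
Mt1: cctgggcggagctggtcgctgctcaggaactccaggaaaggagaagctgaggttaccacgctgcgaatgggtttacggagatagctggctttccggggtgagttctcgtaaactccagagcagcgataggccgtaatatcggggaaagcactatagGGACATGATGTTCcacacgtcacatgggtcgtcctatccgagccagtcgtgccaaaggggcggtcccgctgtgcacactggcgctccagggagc
Such a match describes the letters of this stretch and says nothing about binding.

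The 12-h levels of most lower glucocorticoid-responsive genes lay near those at 1 week. For 22 of the 23 lower members the 12-h mean was closer, on the log2 scale, to the 1-week mean than to the 1-h mean, against 59.6% of all genes that were lower at 1 week. Plin4 averaged 8.85 CPM at 12 h, Cdkn1a 6.87 CPM and Fkbp5 31.1 CPM. When fed and 72-h fasted libraries were scaled together with the refeeding libraries, Plin4 averaged 68.5 CPM after the fast and 28.9 CPM in fed animals, and Cdkn1a 23.2 CPM after the fast and 7.61 CPM in fed animals. On the same scale 1-h libraries held 96.6 CPM of Plin4 and 32.9 CPM of Cdkn1a. Alb, the albumin gene of liver, averaged 236 ± 331 CPM in the fed libraries on this scale and 0.336 CPM after the fast, so the fed group held liver transcripts in uneven amounts, and their part in its levels was not tested. These levels across tables are given without a test.

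**Figure D3:**
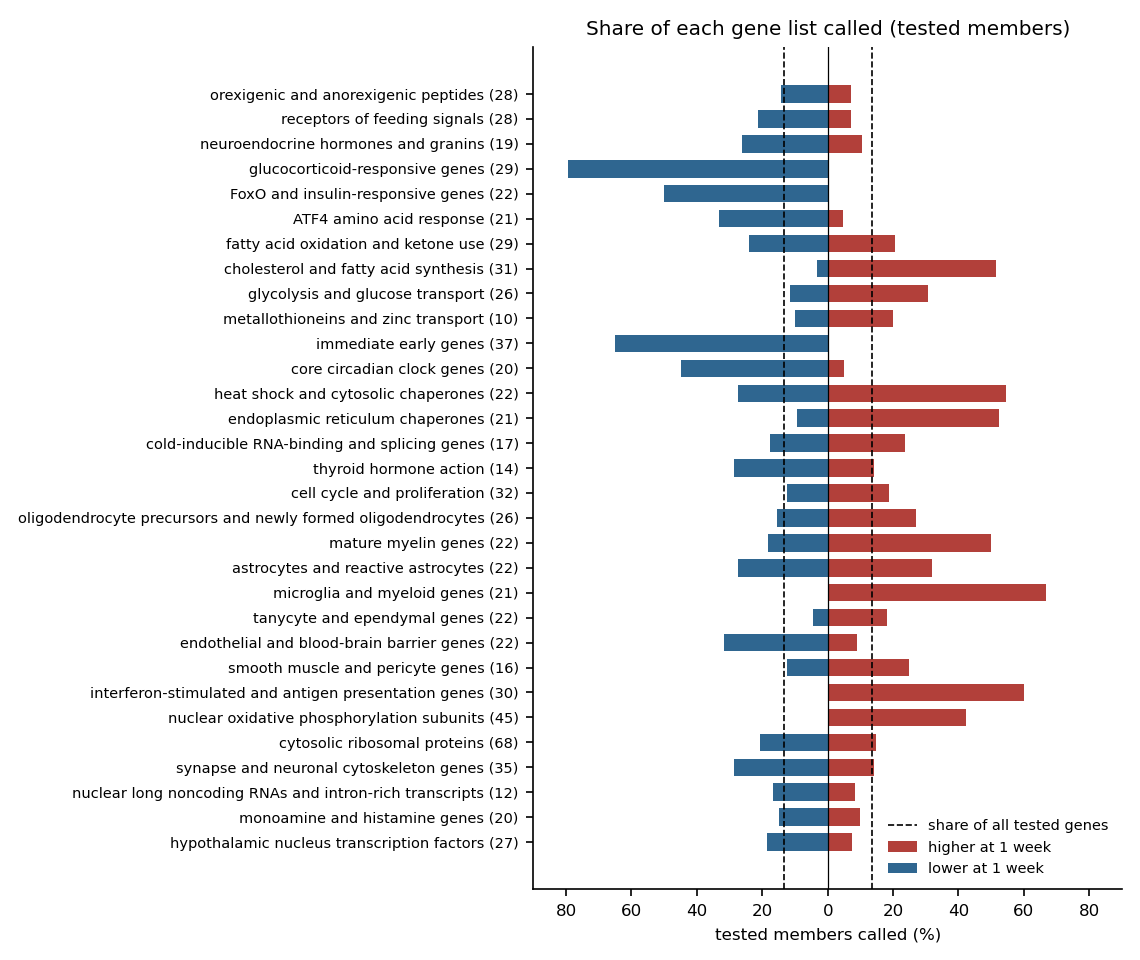
Share of the measured members of each list that were called, with the higher share to the right of 0 in red, the lower share to the left in blue and dashed lines at 13.5%, the share of all tested genes in each direction. The number of measured members follows each list's name, and lists of markers of other tissues and of blood are not plotted. Glucocorticoid-responsive (79.3%) and immediate early genes (64.9%) extend farthest to the left, and microglial (66.7%) and interferon-stimulated genes (60%) farthest to the right among the lists plotted.

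Among feeding peptides, Npy carried a large difference, while Agrp, most of whose exon bases are shared with other genes, was not called. Of 31 listed peptides 28 were measured, 2 were higher and 4 lower at 1 week (7.14% and 14.3%, near the shares of all genes), with a median of 0.18. Npy (ENSMUSG00000029819, chr6:49822710-49829507), the orexigenic peptide of arcuate and other neurons, had 8.11, 7.53, 10.02 and 8.69 CPM at 1 week, against 27.7, 30.2 and 32.4 CPM at 1 h. Every 1-week library held less than any 1-h library, and the gene was 3.50-fold lower at 1 week (log2 difference -1.81 ± 0.11, adjusted p = 2.91e-07). Agrp (ENSMUSG00000005705), the melanocortin antagonist made by the same arcuate neurons, had 5.94, 6.201, 5.89 and 6.56 CPM at 1 week, against 5.06, 4.95 and 6.49 CPM at 1 h. Its libraries overlapped and it was not called (log2 difference 0.16 ± 0.11, adjusted p = 0.328), and 59.9% of its span is shared with other genes. Npy is also made by cortical interneurons, and cortical markers were lower at 1 week as given above. In 12-h library 2, where Slc17a7 was 2.12 CPM against 55.6 and 68.4 CPM in the other 12-h libraries, Npy was 24.1 CPM against 22.0 and 18.9 CPM. On the scale shared with the fasting table Npy averaged 14.8 CPM after the 72-h fast and 16.9 CPM in fed animals. Both values lay between the 1-week and 1-h means, but count table and feeding state cannot be told apart in this placement.

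Cartpt, the anorexigenic CART peptide, moved the other way, with 31.1, 35.3, 32.2 and 27.8 CPM at 1 week, against 20, 20.5 and 19.8 CPM at 1 h. All 1-week libraries were above all 1-h libraries (log2 difference 0.65 ± 0.08, adjusted p = 6.36e-05). Pomc, the precursor of alpha-MSH, had 14.6, 19.99, 44.5 and 14.5 CPM at 1 week, against 15.7, 6.58 and 3.20 CPM at 1 h, and its wide and overlapping values did not pass the test (log2 difference 1.47 ± 1.00, adjusted p = 0.323). Prl, a pituitary hormone, had 2.80, 19.4, 90.6 and 16.3 CPM at 1 week, against 21.5, 11.9 and 1.02 CPM at 1 h, and it too was not called (log2 difference 1.5 ± 1.55, adjusted p = 0.521). Pomc is also made in the pituitary, and 1-week library 3 was highest for Pomc. Crh, the peptide that drives the stress axis, averaged 4.23 ± 0.663 CPM at 1 week and 6.33 ± 0.654 CPM at 1 h (log2 difference -0.59 ± 0.13, adjusted p = 0.00533). Cck, the satiety peptide that cortical neurons also make, averaged 7.29 ± 1.03 CPM at 1 week and 18.6 ± 4.44 CPM at 1 h (log2 difference -1.35 ± 0.33, adjusted p = 0.0201), and its call was lost without 1-h library 1 or 3 or 1-week library 2 (adjusted p between 0.057 and 0.0701). In 12-h library 2, which was low in Slc17a7 as given above, Cck was 5.41 CPM against 15.8 and 14.3 CPM in the other 12-h libraries, and the part of cortical tissue in its difference was not tested. Nts, neurotensin, averaged 18.5 ± 1.94 CPM at 1 week and 12.5 ± 1.33 CPM at 1 h (log2 difference 0.56 ± 0.11, adjusted p = 0.0017). Sst, somatostatin, differed little (log2 difference -0.24 ± 0.08, adjusted p = 0.0416) and lost its call without 1-h library 1 or 2 or 1-week library 1 or 4 (adjusted p between 0.0835 and 0.246).

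Of 28 measured receptors of feeding signals 6 were lower (21.4%) and 2 higher (7.14%). Ghsr, the ghrelin receptor, had 4.50, 3.55, 3.14 and 2.96 CPM at 1 week, against 4.90, 6.10 and 5.11 CPM at 1 h (log2 difference -0.60 ± 0.16, adjusted p = 0.0107), and it was not called without 1-h library 2 (adjusted p = 0.0554). Adipor2, an adiponectin receptor, averaged 69.0 ± 4.62 CPM at 1 week and 98.1 ± 12.3 CPM at 1 h (log2 difference -0.51 ± 0.08, adjusted p = 0.00045). Mrap2, an accessory protein of melanocortin and ghrelin receptors, was higher, with 32.0, 30.4, 28.9 and 28.9 CPM at 1 week, against 19.4, 24.0 and 18.9 CPM at 1 h (log2 difference 0.54 ± 0.09, adjusted p = 0.000535). Ntsr2, a neurotensin receptor of astrocytes, was also higher (log2 difference 0.25 ± 0.06, adjusted p = 0.00678). The remaining lower receptors were Npy1r (-0.42), Mchr1 (-0.48), Cckbr (-0.38) and Insr (-0.16), on which single libraries decided. Npy1r was not called without 1-h library 1 or 3 or 1-week library 1 (adjusted p up to 0.124), Cckbr without 1-h library 1 (0.0521). Mchr1 lost its call without 5 single libraries, all but 1-h library 2 and 1-week library 3 (up to 0.217), and Insr without 6, all but 1-week library 4 (up to 0.126). Without 1-h library 1 only 2 receptors, and without 1-week library 1 only 3, were called lower. Among neuroendocrine hormones and granins, 5 of 19 measured members were lower and 2 higher. Vgf, the granin that neuronal activity and fasting induce, had 203, 211, 191 and 193 CPM at 1 week, against 268, 275 and 294 CPM at 1 h (log2 difference -0.48 ± 0.06, adjusted p = 0.000111). Pcsk1n, an inhibitor of prohormone convertase, averaged 390.4 ± 20.9 CPM at 1 week and 569 ± 44.1 CPM at 1 h (log2 difference -0.54 ± 0.08, adjusted p = 0.000175). Prlr, the prolactin receptor that choroid plexus also carries, was higher (log2 difference 0.60 ± 0.14, adjusted p = 0.0107). Histamine receptors went opposite ways, Hrh1 higher (log2 difference 0.61 ± 0.11, adjusted p = 0.000962) and Hrh3 lower (log2 difference -0.53 ± 0.08, adjusted p = 0.000247).

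Genes that FoxO factors raise when insulin is low followed the glucocorticoid-responsive genes in direction. Of 22 measured members of the FoxO and insulin list 11 (50%) were lower at 1 week and 0 higher, with a median of -0.24. Cited2, a transcriptional coactivator, had 19.6, 22.9, 23.3 and 23.0 CPM at 1 week, against 40.3, 38.5 and 42.9 CPM at 1 h (log2 difference -0.87 ± 0.08, adjusted p = 5.56e-06). Bcl6, a repressor that is also on the glucocorticoid list, averaged 22.4 ± 2.54 CPM at 1 week and 39.0 ± 3.39 CPM at 1 h (log2 difference -0.80 ± 0.09, adjusted p = 3.84e-05). Klf15, a fasting-induced Kruppel-like factor, averaged 34.5 ± 1.91 CPM at 1 week and 55.1 ± 4.45 CPM at 1 h (log2 difference -0.68 ± 0.07, adjusted p = 1.73e-05). Irs2, the adaptor of insulin and IGF receptors, had 104, 104, 108 and 101 CPM at 1 week, against 144, 150.5 and 176 CPM at 1 h (log2 difference -0.59 ± 0.07, adjusted p = 4.51e-05). Igf1r (-0.06), the IGF1 receptor itself, did not pass the test. On the scale shared with the fasting table Cited2 averaged 29.6 CPM after the fast and 35.9 CPM in fed animals. In the same order Bcl6 averaged 27.1 and 29.4 CPM, Irs2 103 and 110 CPM and Klf15 42.1 and 39.8 CPM. The 1-h means on that scale were above both for each gene, at 41.5, 39.9, 160 and 56.3 CPM. These levels were not tested, and between the tables count table and feeding state cannot be told apart. Of 21 measured genes of the ATF4 amino acid response 7 were lower and 1 higher, and without 1-h library 1 only 4 were called lower. Slc7a1, a cationic amino acid transporter, was lower (log2 difference -0.41 ± 0.08, adjusted p = 0.00165) while Slc7a3, another transporter of that family, was higher (log2 difference 0.65 ± 0.13, adjusted p = 0.00235).

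Genes of fat and ketone use were mixed, with 7 of 29 measured members lower and 6 higher and a median of 0.04. Among the lower genes Pdk2, a kinase that shuts pyruvate dehydrogenase, averaged 55.9 ± 1.76 CPM at 1 week and 83.3 ± 1.65 CPM at 1 h (log2 difference -0.58 ± 0.05, adjusted p = 6.14e-06). Fabp7, the fatty acid binding protein of astrocytes and radial glia, was among the genes with the largest increases, with 21.2, 23.0, 18.4 and 19.1 CPM at 1 week, against 3.31, 3.62 and 2.33 CPM at 1 h. Each 1-week library held several times the level of any 1-h library (log2 difference 2.73 ± 0.17, adjusted p = 8.43e-07). On the scale shared with the fasting table Fabp7 averaged 10.8 CPM after the fast and 17.8 CPM in fed animals. Among glucose transporters 2 were lower, Slc2a4 (GLUT4, the insulin-responsive transporter) with 1.36, 1.79, 1.06 and 0.750 CPM at 1 week, against 4.78, 4.95 and 4.16 CPM at 1 h (log2 difference -1.91 ± 0.24, adjusted p = 0.00011) and Slc2a1 (GLUT1, of brain vessels and astrocytes) with 26.6, 27.2, 26.4 and 25.9 CPM at 1 week, against 35.0, 38.6 and 49.5 CPM at 1 h (log2 difference -0.63 ± 0.10, adjusted p = 0.000347). Slc2a3 (GLUT3, of neurons) averaged 107 CPM at 1 week and 115 CPM at 1 h and did not pass the test (log2 difference -0.10 ± 0.06, adjusted p = 0.218). Of 26 measured members of the glycolysis and glucose transport list 8 were higher, 3 lower and 15 not called. The lower members were Slc2a4, Slc2a1 and Gapdh, a glycolytic enzyme (log2 difference -0.27 ± 0.07, adjusted p = 0.0101). Pgk1, phosphoglycerate kinase, averaged 217 ± 13.4 CPM at 1 week and 149.6 ± 5.94 CPM at 1 h (log2 difference 0.54 ± 0.08, adjusted p = 0.000264). Pfkl, a phosphofructokinase, was higher by 0.42 and Ldha, lactate dehydrogenase A, by 0.31 on the log2 scale. Without 1-h library 3 only 5 members were called higher.

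**Figure D4:**
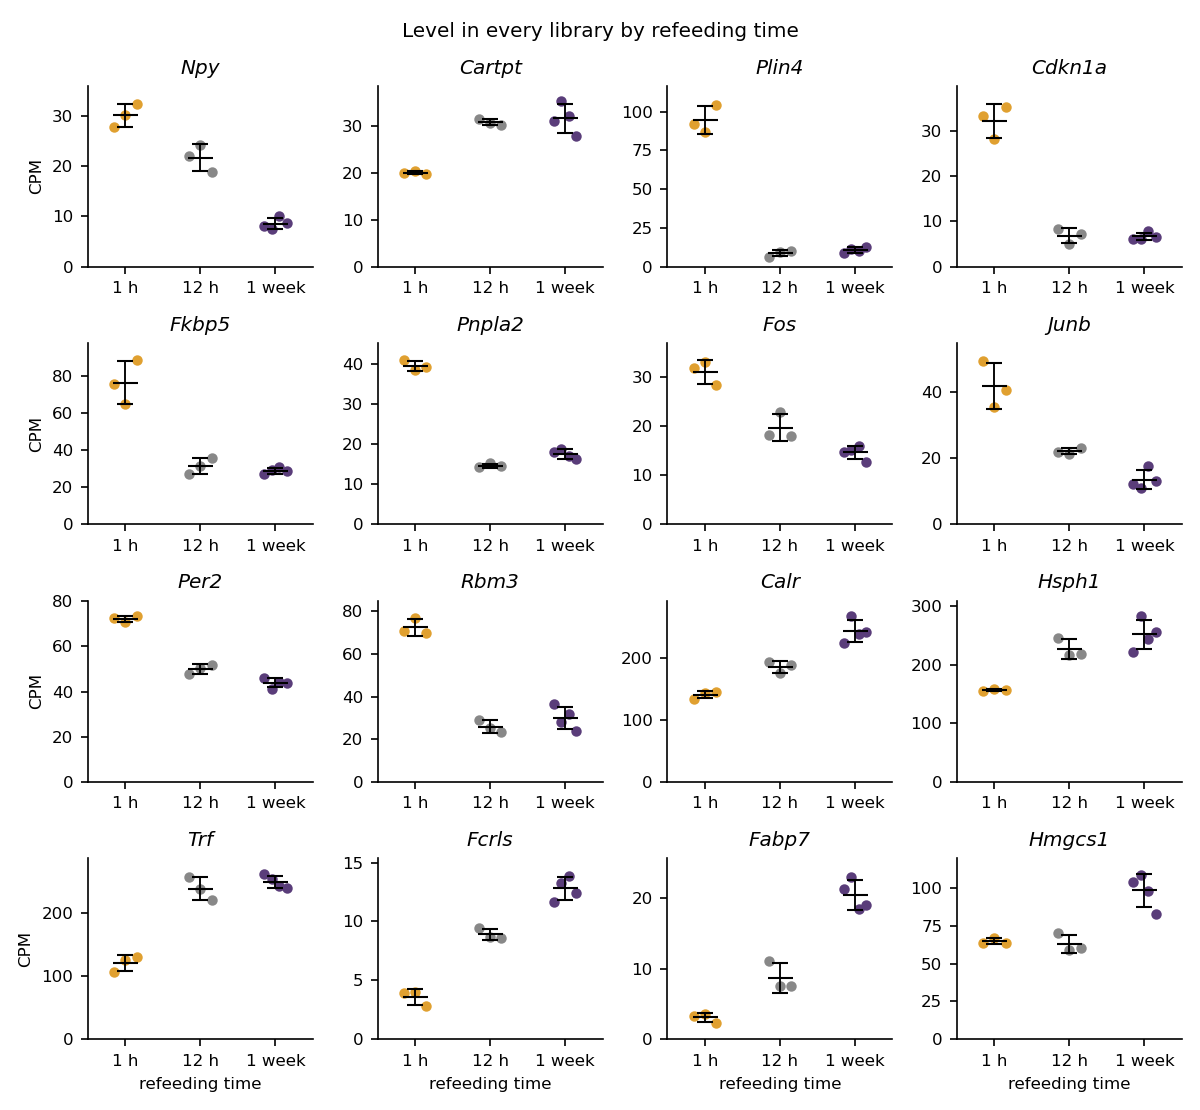
Level of 16 genes in every library at 1 h, 12 h and 1 week of refeeding, in CPM with axes from 0, with points for libraries and bars for the mean ± SD. Plin4, Cdkn1a, Fkbp5, Pnpla2 and Rbm3 had 12-h levels near those at 1 week, Npy at 12 h was nearer to 1 h, and Hmgcs1 at 12 h lay beside 1 h.

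Immediate early genes, which neurons switch on within minutes of activity, were lower at 1 week. Of 37 measured genes 24 (64.9%) were lower and 0 higher, with a median of -0.83, and the list's summed level was 817 to 970 CPM at 1 week and 1315 to 1524 CPM at 1 h. Fos had 14.8, 15.2, 15.8 and 12.8 CPM at 1 week, against 31.8, 33.1 and 28.4 CPM at 1 h, and no 1-week library reached any 1-h library (log2 difference -1.08 ± 0.10, adjusted p = 7.38e-06). Junb, its AP-1 partner, had 12.2, 11.1, 17.6 and 13.2 CPM at 1 week, against 49.5, 35.7 and 40.8 CPM at 1 h (log2 difference -1.64 ± 0.14, adjusted p = 2.48e-05). Egr4 and Egr2, zinc finger factors of the EGR family, were 4.50-fold and 4.03-fold lower (log2 difference -2.17 ± 0.40, adjusted p = 0.00655 for Egr4, and log2 difference -2.01 ± 0.29, adjusted p = 0.000517 for Egr2). Klf2, a Kruppel-like factor that vessels also express, averaged 2.52 ± 0.483 CPM at 1 week and 8.68 ± 0.711 CPM at 1 h (log2 difference -1.78 ± 0.18, adjusted p = 2.54e-05). Homer1 (-0.58) did not pass the test. On the scale shared with the fasting table Fos averaged 3.16 CPM after the 72-h fast and 13.5 CPM in fed animals, beside 14.9 CPM at 1 week and 31.8 CPM at 1 h. Junb averaged 5.71 CPM after the fast and 17.2 CPM in fed animals, beside 13.7 CPM at 1 week and 43.0 CPM at 1 h.

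Cortical markers were lower at 1 week in the same libraries, and cortical neurons are a strong source of these genes. Within the 12-h group, library 2 held 2.12 CPM of Slc17a7 and the others 55.6 and 68.4 CPM, while Fos was 22.8 CPM in library 2 and 18.2 and 17.9 CPM in the others. Junb was 21.3 CPM in 12-h library 2 and 21.9 and 23.2 CPM in the others, and Egr4 was 7.599 CPM against 10.3 and 11.9 CPM. The summed level of the immediate early genes was 987 CPM in 12-h library 2, against 1123 and 1121 CPM in the others. The part of cortical tissue in the early gene differences was not tested. At 1 week the library with the most Slc17a7, library 3, also held the most Junb and Egr4 of the 4 and lay under every 1-h library for both. Among synaptic genes, Grin1, a glutamate receptor subunit, was lower (log2 difference -0.52 ± 0.06, adjusted p = 7.41e-05) and Slc17a6, the glutamate transporter of hypothalamic and thalamic neurons, was higher (log2 difference 0.60 ± 0.12, adjusted p = 0.00348), and 10 of 35 measured synaptic and cytoskeletal genes were lower and 5 higher. Leaving out any one of 1-h libraries 1, 2 or 3 or 1-week libraries 1 or 2 left 6 synaptic genes called lower.

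A cAMP response element, spelled TGACGTCA and read on both strands, is present in the 250 bases before the start of 1.55% of mouse promoters. Counted by gene the share is 1.77%. The element was found in 3 of 27 immediate early genes with a RefSeq promoter (Btg2, Dusp1 and Maff). All 3 were lower at 1 week, as were 19 of the 27 in all, so the match count describes the list and not the response. Dusp1, the phosphatase that ends MAP kinase signals, averaged 15.1 ± 1.95 CPM at 1 week and 27.9 ± 2.70 CPM at 1 h (log2 difference -0.89 ± 0.10, adjusted p = 3.78e-05). Its promoter at chr17:26508473-26508722 (GRCm38.p6, minus strand, RefSeq) is shown with the match in capitals, 143 bases before the gene start.
Dusp1: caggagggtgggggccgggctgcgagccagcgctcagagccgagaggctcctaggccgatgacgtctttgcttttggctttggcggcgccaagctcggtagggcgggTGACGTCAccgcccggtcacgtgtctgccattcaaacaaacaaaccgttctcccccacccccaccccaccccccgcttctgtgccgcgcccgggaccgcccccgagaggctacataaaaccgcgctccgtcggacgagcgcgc

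Clock genes were more often lower than higher at 1 week, with 9 of 20 measured members (45.0%) lower and 1 higher and a median of -0.19. Per2, a light- and hormone-responsive repressor of the clock, had 46.1, 41.3, 44.3 and 43.6 CPM at 1 week, against 72.5, 70.9 and 73.5 CPM at 1 h. The values within each time lay close together and the times did not overlap (log2 difference -0.72 ± 0.06, adjusted p = 2.34e-06). Per1, which is also an immediate early and glucocorticoid-responsive gene, had 69.0, 64.9, 86.6 and 63.8 CPM at 1 week, against 153, 139.7 and 145 CPM at 1 h (log2 difference -1.04 ± 0.09, adjusted p = 8.73e-06). Tef, a PAR bZIP output factor, was lower (-0.43 on the log2 scale), as was Cry2, a repressor (-0.46). The sources used here do not give the hour of collection, so the hour of day and the refeeding time cannot be told apart. An E-box, CACGTG, is in 6.02% of promoters of this length, and counted by gene the share is 6.86%. It was found in 5 of 17 clock genes with a RefSeq promoter, of which Cry1, Per1 and Tef were lower at 1 week. Of all 17 genes 7 were lower. The promoter of Per1 at chr11:69098699-69098948 (GRCm38.p6, plus strand, RefSeq) is shown with its E-box in capitals, 166 bases before the gene start.
Per1: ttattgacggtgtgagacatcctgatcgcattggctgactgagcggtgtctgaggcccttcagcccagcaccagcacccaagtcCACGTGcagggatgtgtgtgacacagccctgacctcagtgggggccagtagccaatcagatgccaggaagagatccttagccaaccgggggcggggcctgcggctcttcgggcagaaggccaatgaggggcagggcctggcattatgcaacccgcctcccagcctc

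Cold-inducible RNA-binding proteins, which rise as body temperature falls, were lower at 1 week. Rbm3 had 36.3, 28.0, 31.6 and 24.0 CPM at 1 week, against 70.8, 77.0 and 69.8 CPM at 1 h (log2 difference -1.27 ± 0.12, adjusted p = 2.63e-05). Cirbp had 46.7, 37.2, 40.5 and 30.7 CPM at 1 week, against 56.8, 65.6 and 52.1 CPM at 1 h (log2 difference -0.58 ± 0.12, adjusted p = 0.00396). Neither gene overlapped between the times, and both had 12-h means, 25.8 and 25.6 CPM, under their 1-week means. Among splicing genes on the same list Rsrp1 was lower (-0.36) and Srsf3 higher (0.45), and in all 4 of 17 measured members were higher and 3 lower. Of 14 measured genes of thyroid hormone action 4 were lower and 2 higher. Hr, a corepressor that thyroid hormone induces in brain, had 31.3, 44.1, 33.3 and 40.8 CPM at 1 week, against 80.3, 75.5 and 82.3 CPM at 1 h (log2 difference -1.09 ± 0.11, adjusted p = 6.84e-05), and Thra, a thyroid hormone receptor, had 282, 269, 308 and 273 CPM at 1 week, against 425, 385 and 387 CPM at 1 h (log2 difference -0.50 ± 0.07, adjusted p = 0.000124). Both genes separated the times without overlap.

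Chaperones were called in both directions, more often higher than lower at 1 week. Of 21 measured chaperones and folding genes of the endoplasmic reticulum 11 (52.4%) were higher at 1 week and 2 lower, with a median of 0.27. Calr, the lectin chaperone calreticulin, had 224, 267, 238 and 242 CPM at 1 week, against 134, 144 and 144 CPM at 1 h (log2 difference 0.79 ± 0.07, adjusted p = 6.14e-06). Hspa5, the Hsp70 of the endoplasmic reticulum (BiP), had 214, 282, 209 and 221 CPM at 1 week, against 147, 166 and 144 CPM at 1 h (log2 difference 0.60 ± 0.10, adjusted p = 0.000798). Pdia6, a disulfide isomerase, averaged 88.5 ± 8.37 CPM at 1 week and 60.4 ± 5.17 CPM at 1 h (log2 difference 0.55 ± 0.08, adjusted p = 0.000249), and Sdf2l1, an Hspa5 partner, averaged 6.68 ± 0.666 CPM at 1 week and 3.52 ± 0.207 CPM at 1 h (log2 difference 0.92 ± 0.12, adjusted p = 9e-05). For all 4 genes the 1-week libraries lay above the 1-h libraries, with 1-week library 2 highest. Syvn1, a ubiquitin ligase that removes misfolded proteins, was lower (log2 difference -0.34 ± 0.06, adjusted p = 0.000709). In the cytosol 12 of 22 measured heat shock genes were higher and 6 lower. Hsph1, an Hsp110, had 222, 283, 244 and 256 CPM at 1 week, against 155, 157 and 156 CPM at 1 h (log2 difference 0.69 ± 0.08, adjusted p = 4.4e-05), Hsp90aa1 averaged 713 ± 95.9 CPM at 1 week and 467 ± 22.3 CPM at 1 h (log2 difference 0.61 ± 0.10, adjusted p = 0.000531), and Hspa4 was higher by 0.50. Hspb1, the small chaperone Hsp27, was lower (log2 difference -1.03 ± 0.18, adjusted p = 0.000923), while Cryab, a small chaperone of oligodendrocytes and astrocytes, was higher (log2 difference 0.61 ± 0.08, adjusted p = 0.00014). Only 3 heat shock genes were called lower without 1-h library 1 or 2.

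The endoplasmic reticulum stress response element, spelled CCAAT and CCACG with 9 bases between them and read on both strands, is rare. Of 32851 promoters 37 (0.113%) hold it in the 250 bases before the start, and counted by gene the share is 0.13%. It was present in 9 of 19 list members with a RefSeq promoter, of which 6 (Calr, Canx, Creld2, Hsp90b1, Hspa5 and Pdia6) were higher at 1 week, 1 (Syvn1) was lower and the others (Derl3 and Dnajc3) were not called. The list gathers known targets of this pathway, so the match count describes the list and not the response. The promoters of the 3 higher genes described above and of Syvn1 are shown to set side by side genes that share the element and went opposite ways, with the element in capitals (as its reverse complement in Calr). They lie at chr2:34771840-34772089 (plus strand), chr8:84846932-84847181 (minus strand), chr12:17266339-17266588 (plus strand) and chr19:6046326-6046575 (plus strand) of GRCm38.p6 in RefSeq, and the elements start 65, 162, 98 and 44 bases before the gene start.
Hspa5: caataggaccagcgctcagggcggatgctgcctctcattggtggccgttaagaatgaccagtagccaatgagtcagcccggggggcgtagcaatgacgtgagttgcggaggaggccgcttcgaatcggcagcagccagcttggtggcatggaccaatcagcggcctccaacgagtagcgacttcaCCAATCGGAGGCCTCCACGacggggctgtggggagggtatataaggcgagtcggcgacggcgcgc
Calr: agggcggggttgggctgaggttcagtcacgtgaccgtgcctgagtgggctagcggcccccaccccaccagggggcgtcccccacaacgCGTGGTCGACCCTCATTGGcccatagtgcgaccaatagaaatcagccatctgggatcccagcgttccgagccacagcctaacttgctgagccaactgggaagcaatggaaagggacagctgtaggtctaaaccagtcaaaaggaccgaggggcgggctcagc
Pdia6: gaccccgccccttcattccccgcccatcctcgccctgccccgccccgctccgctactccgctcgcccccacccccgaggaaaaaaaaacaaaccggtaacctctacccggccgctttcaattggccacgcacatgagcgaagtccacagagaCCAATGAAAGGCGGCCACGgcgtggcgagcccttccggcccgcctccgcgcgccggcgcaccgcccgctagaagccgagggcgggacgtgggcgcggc
Syvn1: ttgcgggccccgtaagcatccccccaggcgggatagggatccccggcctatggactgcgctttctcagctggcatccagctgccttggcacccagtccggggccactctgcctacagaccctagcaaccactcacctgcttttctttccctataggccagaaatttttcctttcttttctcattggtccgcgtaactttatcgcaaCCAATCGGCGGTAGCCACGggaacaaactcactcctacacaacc

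Sterol synthesis genes and subunits of the respiratory chain were more often called higher than lower at 1 week. Of 31 measured genes of cholesterol and fatty acid synthesis 16 (51.6%) were higher and 1 lower, with a median of 0.22. Msmo1, a sterol demethylase, had 56.6, 58.3, 50.5 and 46.8 CPM at 1 week, against 31.5, 37.1 and 31.3 CPM at 1 h (log2 difference 0.67 ± 0.09, adjusted p = 0.000117). Hmgcs1, the cytosolic synthase that feeds the mevalonate pathway, had 104, 109, 97.8 and 83.0 CPM at 1 week, against 63.8, 67.1 and 63.5 CPM at 1 h (log2 difference 0.60 ± 0.09, adjusted p = 0.000228), with 34.6% of its span shared with other genes. Scd1, a fatty acid desaturase, averaged 269 ± 18.7 CPM at 1 week and 196 ± 20.5 CPM at 1 h (log2 difference 0.46 ± 0.08, adjusted p = 0.000677). Fasn, fatty acid synthase, did not pass the test (log2 difference -0.13 ± 0.07, adjusted p = 0.177). Without 1-h library 3 only 8 members were called higher. Of 45 measured nuclear subunits of oxidative phosphorylation 19 (42.2%) were higher and 0 lower, with a median of 0.15. Atp5g3, a subunit of ATP synthase, had 95.5, 99.0, 93.8 and 77.4 CPM at 1 week, against 58.0, 55.8 and 51.2 CPM at 1 h (log2 difference 0.73 ± 0.10, adjusted p = 0.000249). Ndufa2 and Uqcrb, of complexes I and III, were higher by 0.68 and 0.64. Without 1-h library 3 only 11 subunits were called higher. For 0 of the 16 higher sterol and lipid genes and 0 of the 19 higher subunits was the 12-h mean nearer to 1 week than to 1 h, against 59.7% of all genes that were higher at 1 week. Sequencing depth had the same split, with 12-h libraries as deep as 1-h libraries, and the part of a run or of depth in these lists was not tested beyond thinning of counts, which is given below. Cytosolic ribosomal protein genes went both ways, 14 of 68 measured lower, with Rpl29 (-0.66) and Rps26 (-0.59) among them, and 10 higher, with Rplp2 (0.65) among those. Only 9 were called lower without 1-h library 1.

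**Figure D5:**
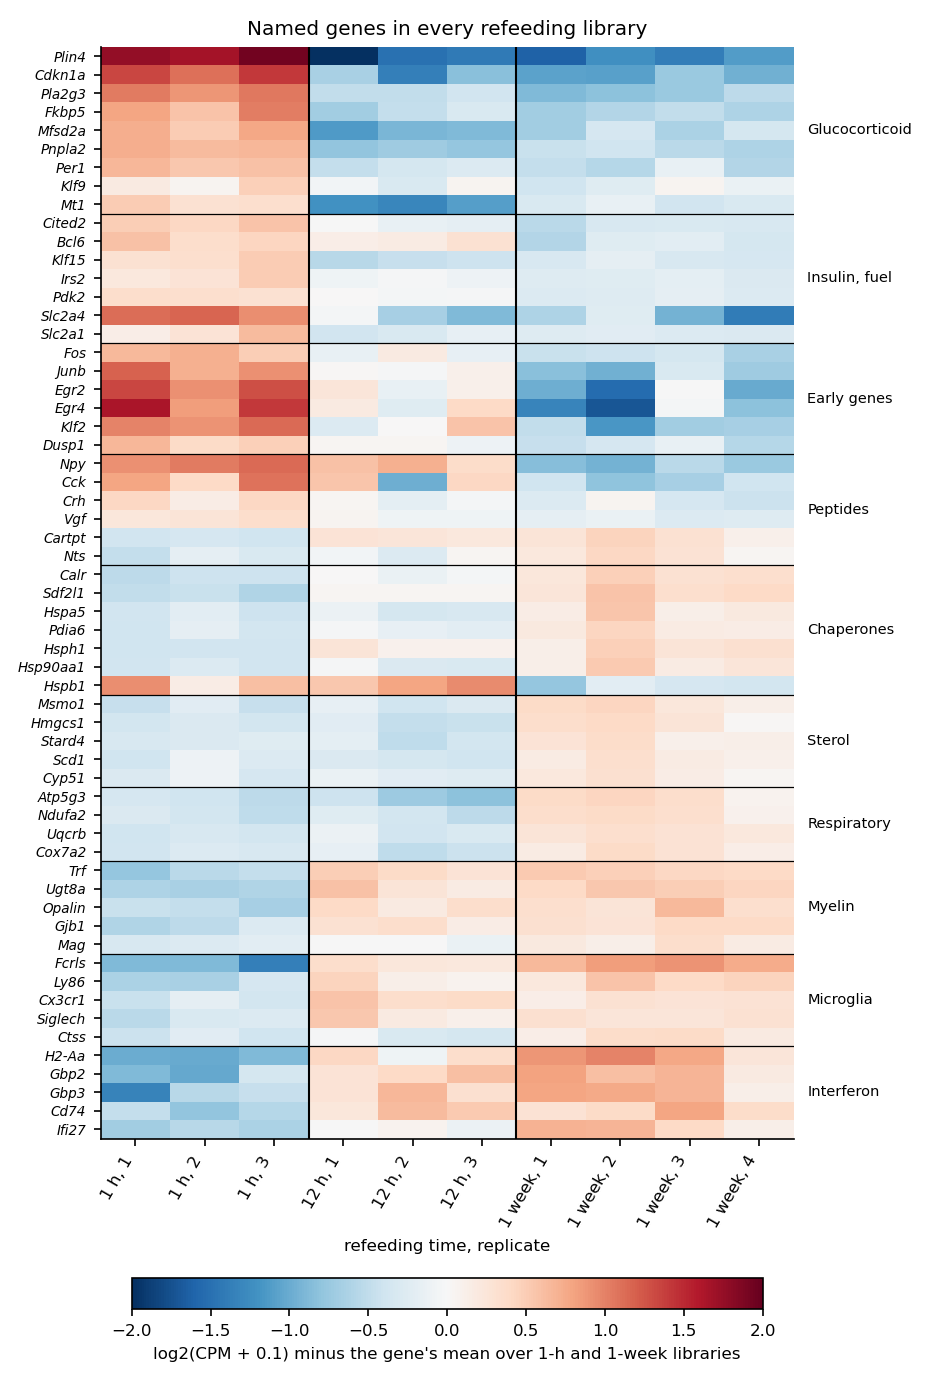
Level of 59 named genes in every refeeding library as log2(CPM + 0.1) minus the gene's mean over the 1-h and 1-week libraries, in red above that mean and in blue below it, with colours saturated at 2 and -2. Libraries are ordered by refeeding time. Glucocorticoid-responsive genes were higher in 1-h libraries than at 12 h or 1 week for most genes shown, respiratory and sterol genes were high in 1-week libraries, and most of the myelin and microglial genes shown were already high at 12 h.

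Oligodendrocyte genes were called in both directions, more often higher than lower at 1 week. Of 22 measured genes of mature myelin 11 (50%) were higher and 4 lower, with a median of 0.25. Ugt8a, the enzyme that makes the galactolipids of myelin, had 67.7, 75.0, 72.8 and 69.1 CPM at 1 week, against 33.3, 33.0 and 34.0 CPM at 1 h (log2 difference 1.09 ± 0.09, adjusted p = 2.34e-06). Trf, transferrin, which oligodendrocytes make in brain, had 262, 254, 244 and 239.9 CPM at 1 week, against 107, 125 and 131 CPM at 1 h (log2 difference 1.05 ± 0.08, adjusted p = 1.5e-06), but 99.5% of its span is shared with another annotated gene. Opalin, an oligodendrocyte membrane glycoprotein, averaged 20.6 ± 2.65 CPM at 1 week and 10.8 ± 0.915 CPM at 1 h (log2 difference 0.94 ± 0.11, adjusted p = 4.04e-05), and Mag, the myelin-associated glycoprotein, averaged 135 ± 9.40 CPM at 1 week and 96.9 ± 3.60 CPM at 1 h (log2 difference 0.48 ± 0.07, adjusted p = 0.000145). None of these 4 genes overlapped between the times. The 4 lower members were Apod, Mobp, Mbp and Cldn11, and the summed level of the list overlapped, 4257 to 4517 CPM at 1 week and 4148 to 4623 CPM at 1 h. Of 26 measured genes of oligodendrocyte precursors and newly formed oligodendrocytes 7 were higher and 4 lower. Bcas1, which marks newly formed oligodendrocytes, had 106, 108, 103 and 106 CPM at 1 week, against 62.5, 72.4 and 70.9 CPM at 1 h (log2 difference 0.63 ± 0.06, adjusted p = 1.97e-05), and Mycl was lower (-0.71). Only 4 of this list were called higher without 1-h library 1 or 1-week library 2.

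Microglial genes were higher at 1 week. Of 26 listed genes 21 were measured, 14 (66.7%) were higher and 0 lower, with a median of 0.48, and summed levels were 612 to 697 CPM at 1 week and 489 to 524 CPM at 1 h. Fcrls, an Fc receptor-like gene of mouse microglia and among the genes with the smallest p of all, had 11.7, 13.2, 13.9 and 12.4 CPM at 1 week, against 3.95, 3.97 and 2.81 CPM at 1 h. The values within each time lay close together, and those at 1 week were all above those at 1 h (log2 difference 1.84 ± 0.12, adjusted p = 6.26e-07). Cx3cr1, the fractalkine receptor, had 27.0, 30.4, 29.8 and 29.98 CPM at 1 week, against 18.1, 21.8 and 19.0 CPM at 1 h (log2 difference 0.58 ± 0.08, adjusted p = 0.000205). Ly86, a partner of a Toll-like receptor homologue, averaged 9.34 ± 0.962 CPM at 1 week and 4.805 ± 0.604 CPM at 1 h (log2 difference 0.96 ± 0.13, adjusted p = 0.000145), and Siglech, a sialic acid-binding receptor of microglia, averaged 8.55 ± 0.252 CPM at 1 week and 5.42 ± 0.534 CPM at 1 h (log2 difference 0.66 ± 0.12, adjusted p = 0.00118). Csf1r, the receptor on which microglia depend, did not pass the test (log2 difference 0.19 ± 0.08, adjusted p = 0.086). Blood markers were also higher at 1 week, at 551 to 1418 CPM in sum, against 219 to 276 CPM at 1 h. In 1-week library 1, where haemoglobin was highest, Cx3cr1 was at its lowest and Siglech at its highest of the 4. The part of blood in these differences was not tested.

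Interferon-stimulated and antigen presentation genes moved in the same direction. Of 32 listed genes 30 were measured, 18 (60%) were higher and 0 lower, with a median of 0.63, at low levels that summed to 157 to 201 CPM at 1 week and 140 to 149 CPM at 1 h. H2-Aa, an MHC class II chain, had 2.47, 2.69, 2.28 and 1.55 CPM at 1 week, against 0.605, 0.592 and 0.658 CPM at 1 h (log2 difference 1.85 ± 0.24, adjusted p = 0.000117). Cd74, the invariant chain of class II, averaged 4.79 ± 0.826 CPM at 1 week and 2.22 ± 0.254 CPM at 1 h (log2 difference 1.11 ± 0.17, adjusted p = 0.000297). Gbp2 and Gbp3, guanylate-binding GTPases that interferon induces, had 3.60, 3.11, 3.29 and 2.30 CPM at 1 week, against 1.051, 0.941 and 1.55 CPM at 1 h for Gbp2, and 2.96, 2.90, 2.73 and 1.82 CPM at 1 week, against 0.605, 1.11 and 1.20 CPM at 1 h for Gbp3. Neither gene overlapped between the times (log2 difference 1.37 ± 0.21, adjusted p = 0.000364 for Gbp2, and log2 difference 1.42 ± 0.25, adjusted p = 0.000842 for Gbp3). Ifi27, a mitochondrial interferon-induced protein, averaged 13.9 ± 2.51 CPM at 1 week and 6.31 ± 0.301 CPM at 1 h (log2 difference 1.13 ± 0.13, adjusted p = 5.2e-05). For 16 of the 18 higher genes the 12-h mean was nearer to 1 week than to 1 h. An interferon-stimulated response element is spelled as a pair of GAAA with 2 bases between them and read on both strands. It is in 2.98% of promoters of 250 bases, and counted by gene the share is 3.46%. It was found in 10 of 22 list members with a RefSeq promoter, of which 9 were higher at 1 week and Stat2 was not called. Of all 22 members 14 were higher. The list gathers interferon-stimulated genes, so the match count describes the list and not the response. The promoters of Gbp2 at chr3:142620413-142620662 and Gbp3 at chr3:142559794-142560043 (GRCm38.p6, both plus strand, RefSeq) are shown with these elements in capitals, both as the reverse complement. The element starts 59 bases before the start of Gbp2, and in Gbp3 a pair of overlapping matches starts 45 bases before it.
Gbp2: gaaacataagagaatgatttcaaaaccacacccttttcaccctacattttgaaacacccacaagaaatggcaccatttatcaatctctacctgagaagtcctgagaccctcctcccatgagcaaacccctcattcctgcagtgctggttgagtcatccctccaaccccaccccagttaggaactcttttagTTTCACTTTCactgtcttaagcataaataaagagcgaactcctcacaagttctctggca
Gbp3: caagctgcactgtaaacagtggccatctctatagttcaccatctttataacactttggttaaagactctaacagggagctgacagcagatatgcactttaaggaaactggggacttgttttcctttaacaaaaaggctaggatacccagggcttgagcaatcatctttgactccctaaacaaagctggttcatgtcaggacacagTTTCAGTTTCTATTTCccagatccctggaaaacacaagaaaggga

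Astrocyte genes split, with 7 of 22 measured higher, 6 lower and a median of -0.11. Agt, angiotensinogen, had 149.7, 179, 127 and 139 CPM at 1 week, against 284, 295 and 276 CPM at 1 h (log2 difference -0.94 ± 0.11, adjusted p = 0.000107), and Sox9, a glial transcription factor, was lower (log2 difference -0.64 ± 0.09, adjusted p = 0.000148). S100b, a calcium-binding protein, had 10.9, 11.0, 10.7 and 10.03 CPM at 1 week, against 6.495, 6.34 and 6.28 CPM at 1 h (log2 difference 0.74 ± 0.09, adjusted p = 6.54e-05). Of its exon bases 83.0% are shared with other genes. Il33, an alarmin that glia make in brain, was among the genes with the smallest p, with 47.2, 51.0, 47.8 and 44.5 CPM at 1 week, against 18.2, 20.6 and 21.5 CPM at 1 h (log2 difference 1.25 ± 0.08, adjusted p = 4.61e-07). On the scale shared with the fasting table Il33 averaged 58.0 CPM after the fast and 95.4 CPM in fed animals. Of 22 measured tanycyte and ependymal genes 4 were higher and 1, Lhx2 (-0.87), was lower. Among 22 measured endothelial and blood-brain barrier genes 7 were lower and 2 higher. Apold1, an endothelial early response gene, averaged 1.92 ± 0.232 CPM at 1 week and 4.69 ± 0.510 CPM at 1 h (log2 difference -1.29 ± 0.19, adjusted p = 0.000289), while Itm2a, a membrane protein of brain vessels, was higher (log2 difference 0.96 ± 0.10, adjusted p = 2.24e-05). Only 3 endothelial genes were called lower without 1-h library 3. Of 16 measured smooth muscle and pericyte genes 4 were higher, 2 lower and 10 not called. Mcam (0.84) and Vtn (0.83) were among the higher ones.

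Proliferation genes were low at both times. Of 32 measured 6 (18.8%) were higher and 4 (12.5%) lower, near the 13.5% of all genes in each direction. Top2a, Cenpf and Mcm2, given next, are higher members, and the 4 lower members are not described. Top2a, the topoisomerase of dividing cells, had 1.76, 1.95, 1.31 and 1.499 CPM at 1 week, against 0.287, 0.557 and 0.478 CPM at 1 h, so that every 1-week library was above every 1-h library (log2 difference 1.88 ± 0.32, adjusted p = 0.000754). Cenpf, a centromere protein of dividing cells, averaged 1.75 ± 0.188 CPM at 1 week and 0.838 ± 0.345 CPM at 1 h (log2 difference 1.05 ± 0.24, adjusted p = 0.0055), and Mcm2, of the replication helicase, averaged 3.96 ± 0.383 CPM at 1 week and 2.44 ± 0.397 CPM at 1 h (log2 difference 0.69 ± 0.16, adjusted p = 0.00514). Among matrix genes Col1a1, the main fibrillar collagen, had 29.9, 21.8, 47.9 and 50.3 CPM at 1 week, against 9.30, 5.02 and 8.61 CPM at 1 h (log2 difference 2.29 ± 0.37, adjusted p = 0.00363), and Col3a1 averaged 8.58 ± 1.41 CPM at 1 week and 2.21 ± 1.04 CPM at 1 h (log2 difference 1.94 ± 0.26, adjusted p = 0.00031).

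Some of the largest differences fell outside the lists. Itgad, an integrin alpha chain, had 1.64, 1.58, 1.39 and 1.31 CPM at 1 week, against 10.1, 10.3 and 12.0 CPM at 1 h (log2 difference -2.87 ± 0.13, adjusted p = 1.03e-08), with 28.3% of its span shared with other genes. Gabrr2, a GABA receptor subunit, had 2.59, 1.95, 3.03 and 2.18 CPM at 1 week, against 10.8, 9.34 and 10.2 CPM at 1 h (log2 difference -2.04 ± 0.14, adjusted p = 6.98e-07). Wnt10b, a secreted WNT ligand, averaged 0.244 ± 0.095 CPM at 1 week and 2.90 ± 1.83 CPM at 1 h (log2 difference -3.53 ± 0.42, adjusted p = 0.000106). Atp1a4, a sodium pump subunit, averaged 0.384 ± 0.069 CPM at 1 week and 2.07 ± 0.688 CPM at 1 h (log2 difference -2.42 ± 0.27, adjusted p = 4.34e-05), and Il12rb1, a cytokine receptor chain, averaged 0.818 ± 0.137 CPM at 1 week and 3.73 ± 1.10 CPM at 1 h (log2 difference -2.19 ± 0.21, adjusted p = 1.08e-05). These 5 genes were lower in every 1-week library than in any 1-h library, which the rule that named them required. For all 5, the mean after the 72-h fast was also above the mean in fed animals on the shared scale, at 0.586 against 0.346 CPM for Wnt10b, 9.93 against 1.87 CPM for Itgad, 12.8 against 3.55 CPM for Gabrr2, 4.02 against 0.481 CPM for Atp1a4 and 2.05 against 0.950 CPM for Il12rb1. In the direction of higher levels, the 7SL RNA genes Rn7s1, with 158, 151, 198 and 131 CPM at 1 week, against 29.4, 45.7 and 41.6 CPM at 1 h, and Rn7s2 (2.41) stood out (log2 difference 2.04 ± 0.20, adjusted p = 0.000172 for Rn7s1). These genes are near-identical copies whose reads cannot be told apart with certainty. Malat1, an abundant nuclear RNA, did not pass the test (log2 difference -0.02 ± 0.08, adjusted p = 0.868).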

How the data were processed

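The values are raw counts per gene and library, as the authors deposited them, and per the submitters' processing notes they came from alignment to mm10 with HISAT2 and counting with featureCounts, without versions. Per the labels, RNeasy kits gave the RNA, and directional libraries followed after ribosomal depletion. All groups of the refeeding table, 1 h, 12 h and 1 week, were fitted together with edgeR 4.0.16 in R 4.3.3 (filterByExpr, TMM, robust quasi-likelihood F test, Benjamini-Hochberg adjustment at 0.05, prior count 0.125), and the contrast 1 week minus 1 h was tested. The fit was tested on simulated data before use. Fed and 72-h fasted libraries of the fasting table were scaled by TMM together with the refeeding libraries to give levels only.

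The files pair 52269 of 55401 identifiers with a symbol, GENCODE gave 3124 more, and 8 stayed without. Coding genes that lie inside another gene were at 0 in every library for 94.3% of those on the same strand and 91.9% of those on the opposite strand, against 14.2% of coding genes without overlap. Reads therefore appear to have been counted over whole gene spans without strand, and a gene at 0 for this reason is not read as silent. Overlap is not given beside every named gene. Exon bases shared with other genes made up 82.1% in Prlr, 61.3% in Slc2a1, 60.6% in Cry2 and 47.8% in Hrh3, so such levels may be partial. In Cx3cr1 57.4% of the span but 2.0% of exon bases were shared. Coordinates are GRCm38.

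The 1-week libraries are numbered here by sample title, so numbers 1, 2, 3 and 4 stand for the libraries named Hypo1, Hypo4, Hypo2 and Hypo3. Replicates are separate libraries per the labels. No source used here says whether each came from its own animal, so p-values measure the spread between samples. Pairs of replicates differed by 8.85 to 37.2 times the sampling noise (chi-square per degree of freedom), so none was counted as a duplicate. Named genes were the called genes with the largest differences or smallest p, Agrp, Npy, Pomc and Cartpt, the called feeding peptides and receptors, and from each other list the called members with the smallest p with up to 2 abundant uncalled ones. Those with the largest differences were taken from genes without overlap between the times and with a mean of at least 1 CPM. A few genes that the rule names are not reported here. Genes named only for a motif, a share of a list or a tissue check (such as Map3k6, Apod, Ttr, Alb, Slc2a3 and Gapdh) were chosen after their values were seen. The members, lists, motifs and tests were chosen with earlier results of these data known. Motifs also searched were a heat shock element, in 7 of 17 heat shock genes with a RefSeq promoter, and a sterol response element, in 1 of 20 synthesis genes. An E2F site was in 4 of 26 proliferation genes. Of all genes 7.73%, 1.22% and 1.31% hold these motifs, in the same order. Alternatives tried were other scalings and filters, DESeq2 1.42.0, limma 3.58.1 voom, a surrogate variable (sva 3.50.0), thinning, a replicate block and leaving out each library.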

Additional observations from a re-analysis of the deposited data

Results flagged for a closer look

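Of 167 sets of 4 values at 1 week (126 named genes and 41 list sums), 12 had a library far from the other 3 by Dixon's test. Chance alone marks about 1 set in 20, and the genes and sums share libraries and members. Library 1 was high for Hbb-bs (367 CPM), Hbb-bt (197 CPM) and the summed blood markers (1418 CPM), and low for Npy1r (10.7 CPM) and Cited2 (19.6 CPM). Library 2 was high for Klf15 (37.4 CPM), Pdia6 (101.0 CPM) and the summed chaperones of the endoplasmic reticulum (2382 CPM). Library 3 was high for Opalin (24.5 CPM), Cd74 (6.02 CPM) and the summed immediate early genes (970.0 CPM, still under the 1315 CPM of the lowest 1-h library). Library 4 was low for Vtn (30 CPM).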

How the results depend on the processing

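The number of genes called stayed within 1.5 times 5370 under every alternative, and 0 of the 5370 calls changed direction in any of them. Counts were 5334 with RLE scaling, 5358 with library totals only, 5087 without a filter, 5199 with a stricter filter, 5604 with both groups fitted alone, 5356 without mitochondrial and small RNAs, 6069 with a surrogate variable, 5640 with DESeq2 and 6146 with voom. Thinning every library to 26.1 M counts gave 4967, with 16 cholesterol and fatty acid synthesis genes and 18 oxidative phosphorylation subunits called higher, against 16 and 19 without thinning. Leaving out single libraries gave 3606 to 4979, the lowest without 1-h library 1. With the replicate number as a block 4717 genes were called. Same-numbered libraries had correlations of -0.096, 0.421 and -0.0353 between their deviations from the group means. The 1-h libraries 1 and 3 correlated best with 1-week libraries 3 and 4, so the title numbers show no steady pairing. By the numbers in the library names the correlations were -0.096, -0.305 and 0.241, and no block was fitted on those. Of 116 called genes named here 108 stayed called under every alternative. Slc17a7 and Sst were not called with the replicate block, Mchr1 and Insr not without a filter, and Mchr1 also not in the thinned fit or with both groups alone. The log2 differences of the uncalled genes Malat1 and Igf1r changed sign. Malat1 (-0.0225) came to 0.0134 with a surrogate variable, 0.0169 without 1-week library 2, and from -0.0978 to 0.0458 over all left-out libraries. Igf1r (-0.0558) came to between -0.132 and 0.00989, the last without 1-week library 2. Depth limits genes near 1 CPM more at 1 h, where libraries were shallower. The cause was not tested.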

Other observations

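Several groups showed few calls or calls in both directions, beside 13.5% of all genes in each direction. Of 10 measured metallothionein and zinc transport genes 2 were higher and 1 lower at 1 week. Smooth muscle and pericyte genes had 4 of 16 measured members higher and 2 lower. Of 27 measured transcription factors of hypothalamic nuclei 2 were higher and 5 lower, with a median log2 difference of 0.13. Of 20 measured monoamine and histamine genes 2 were higher and 3 lower, and of 12 measured nuclear long noncoding RNAs 1 was higher and 2 were lower. Of 9 measured pituitary markers 2 were higher and 0 lower.

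The 12-h mean lay nearer to the 1-week than to the 1-h mean in unequal shares of the lists. This held for 7 of 11 higher myelin genes and 10 of 14 higher microglial genes, against 59.7% of all higher genes. It held for 1 of 8 higher glycolysis genes, 3 of 11 higher chaperones of the endoplasmic reticulum and 0 of 10 higher ribosomal protein genes. Among lower genes it held for 17 of 24 immediate early genes and 2 of 8 cortical markers, against 59.6% of all lower genes. These shares were not tested.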
